A study of Mus musculus with 7 samples.

Results

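Transcripts of 37 genes that copy DNA and divide cells were followed in basal cells sorted from the mouse mammary gland. The genes were listed by symbol in 3 roles: 11 genes of DNA replication, 5 genes of the passage from G1 into S phase, and 21 genes of mitosis. The list named 38 genes. The 38th, Plk1, a mitotic kinase, appears in the deposited table only in a feature shared with its neighbour Dctn5 and was left out. The table holds 56440 gene models in all, and all 37 members passed the filter on low values, under which 16889 genes were tested.

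The cells came from fresh glands on day 2 of lactation and were isolated by flow cytometry, so they were mostly myoepithelial cells, the contractile layer that surrounds the milk-producing luminal cells. There were 3 libraries of mutants named a3a6KO, for the integrin subunits α3 and α6 that bind laminin, and 4 libraries of controls named Ctrl, called biological replicates in the series' design text. The titles mark the mutants as Blg positive and the controls as Blg negative. From background on this mouse, Blg is taken as Cre driven by the beta-lactoglobulin promoter, which works in luminal cells, so the basal cells measured here would not be the cells meant to lose the integrins. Every mutant carried Blg and no control did, so Blg and the deletion cannot be told apart. The sources used here do not give the sorting markers, or the age and strain of the animals.

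A dividing cell first commits to S phase, when D and E cyclins with their kinases release the E2F transcription factors from the retinoblastoma proteins. E2F factors switch on the genes that load the MCM helicase on DNA and supply nucleotides. Later a second wave of genes, repressed in resting cells by the DREAM complex and activated by B-MYB and FOXM1, provides the cyclins, kinases, spindle motors and ubiquitin ligase activators of mitosis. The gland proliferates strongly in pregnancy, and in lactation its epithelium is mainly differentiated.

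Many, though not all, of the members' promoters hold short words by which these waves are known, and 5 promoters are shown to let them be seen. Of the 29 members with an entry, 5 held none of the words, namely Ccne1, E2f1, Birc5, Nusap1 and Tyms. In capitals are the E2F word TTTNNCGC, in which each N is G or C, the CHR words TTTGAA and TTCGAA, through which DREAM and its relatives act, and the CCAAT box of the factor NF-Y, each on either strand. Each line gives the 150 bases before the start of the gene, 5′ to 3′, from RefSeq on GRCm38.p6.
Mcm6, chr1:128359706-128359855, minus strand: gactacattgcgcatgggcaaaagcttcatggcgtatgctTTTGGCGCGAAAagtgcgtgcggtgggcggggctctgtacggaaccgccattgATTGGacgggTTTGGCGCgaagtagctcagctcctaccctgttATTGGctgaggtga
Mcm3, chr1:20820313-20820462, minus strand: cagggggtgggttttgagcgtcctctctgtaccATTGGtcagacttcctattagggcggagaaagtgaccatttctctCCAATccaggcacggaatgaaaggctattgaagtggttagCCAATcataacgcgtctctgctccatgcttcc
Mcm2, chr6:88898781-88898930, minus strand: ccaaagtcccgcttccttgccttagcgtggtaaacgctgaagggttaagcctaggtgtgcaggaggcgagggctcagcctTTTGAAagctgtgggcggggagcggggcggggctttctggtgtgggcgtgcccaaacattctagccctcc
Cdc20, chr4:118437344-118437493, minus strand: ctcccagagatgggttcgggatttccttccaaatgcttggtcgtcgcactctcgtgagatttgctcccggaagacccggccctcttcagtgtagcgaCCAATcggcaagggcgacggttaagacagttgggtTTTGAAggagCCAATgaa
Ccnb2, chr9:70421555-70421704, minus strand: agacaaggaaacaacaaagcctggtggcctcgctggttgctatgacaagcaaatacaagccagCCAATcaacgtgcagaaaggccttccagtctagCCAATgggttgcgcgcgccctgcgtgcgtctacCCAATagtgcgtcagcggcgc
Mcm6 was picked after the sequences were seen, because its E2F words lie before the start, at 110, 106 and 47 bases, where the first and second overlap and run in opposite directions. In Mcm3 the E2F words lie after the start and are not printed. Mcm2, a replication gene, holds no E2F word and has a CHR word 70 bases before the start. The CHR words of Ccnb2 lie 167 bases before and 4 bases after the start, outside the printed stretch. Cdc20 has a CHR word 18 bases before the start and CCAAT boxes at 53 and 8 bases.

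Over windows of 250 bases before to 50 after the start, 10 of the replication members had entries, with 11 promoters. Of these 11, 5 (45.5%) held the E2F word, against 2.26% of all 32851 promoters of the same length. The mitosis members had 17 promoters of 16 genes, of which 13 (76.5%) held both a CHR word and a CCAAT box, against 7.52% of all promoters. The E2F word was in 1 of the 17 mitosis promoters, and CHR and CCAAT together were in 2 of the 11 replication promoters. Among the G1/S members 3 had an entry, of which 1 held the E2F word. A match is a run of letters and not a measured binding site.

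Basal markers were high in every library, as the sort label would have it, though this does not measure purity. Krt14 was at 35785 to 79196 normalised read counts and Acta2 at 460944 to 727845. The 8 basal markers, with Acta2 the larger part, summed to 841487 to 981196 in a3a6KO and 762134 to 1042910 in Ctrl. Of the 8, 1 was lower in every a3a6KO library than in every control and 0 were higher. Over all genes tested these shares were 3.51% and 4.00%. Reads per library ran from 9368418 to 21548279, with the shallowest libraries in a3a6KO replicates 2 and 3. The targeted genes had similar values in both groups: Itga3 had 494 to 818 in a3a6KO and 465 to 719 in Ctrl, and Itga6 8343 to 9083 in a3a6KO and 7764 to 10603 in Ctrl, which covers whole genes and not single exons.

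In limma 0 members reached an adjusted p under 0.05 between a3a6KO and Ctrl, and neither did any gene of the table (0.00% of 16889, with 1068 at an unadjusted p under 0.05). On recovered reads, edgeR's quasi-likelihood test called 0 of 17228 genes. DESeq2 called 73 (0.232% of the 31469 with an unadjusted p), of which 0 were members. It gave no adjusted p to Cdc6, Ccne2, Aurkb, Cenpe, Foxm1 and Nusap1, so these members could not be called there. In direction, 35 of the 37 members had a log2 fold change above 0, where 49.5% of all genes tested did. The exceptions were Mcm4, a helicase subunit, and Cenpe, a kinetochore motor. The members share their libraries, so this count is not 37 separate observations, and leaving out Ctrl replicate 1 gave 31, leaving out Ctrl replicate 2 gave 30, and edgeR and DESeq2 gave 32 each. In bulk samples a difference in the number of dividing cells and one in the RNA of each such cell cannot be told apart.

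The range of the controls was wide. The mean over the 37 members, on the scale log2(normalised read count + 1), was 6.55, 6.55 and 6.86 in a3a6KO replicates 1 to 3, and 5.51, 5.56, 6.78 and 6.75 in Ctrl replicates 1 to 4. The a3a6KO libraries thus lay between or beside the controls, above Ctrl replicates 1 and 2 and close to Ctrl replicates 3 and 4. Of the 37 members, 17 had their lowest value in Ctrl replicate 1 and 17 in Ctrl replicate 2. Over all genes tested, 18.4% were lowest in Ctrl replicate 1 and 10.7% in Ctrl replicate 2. Ctrl replicate 3 was the lowest library for 1 member and Ctrl replicate 4 for 0, against 15.2% and 9.40% of all genes. The highest value was in a3a6KO replicate 3 for 20 members, in Ctrl replicate 3 for 7, in Ctrl replicate 4 for 4 and in Ctrl replicate 1 for 1, where 21.7%, 14.2%, 8.92% and 19.9% of all genes were highest.

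**Figure D1:**
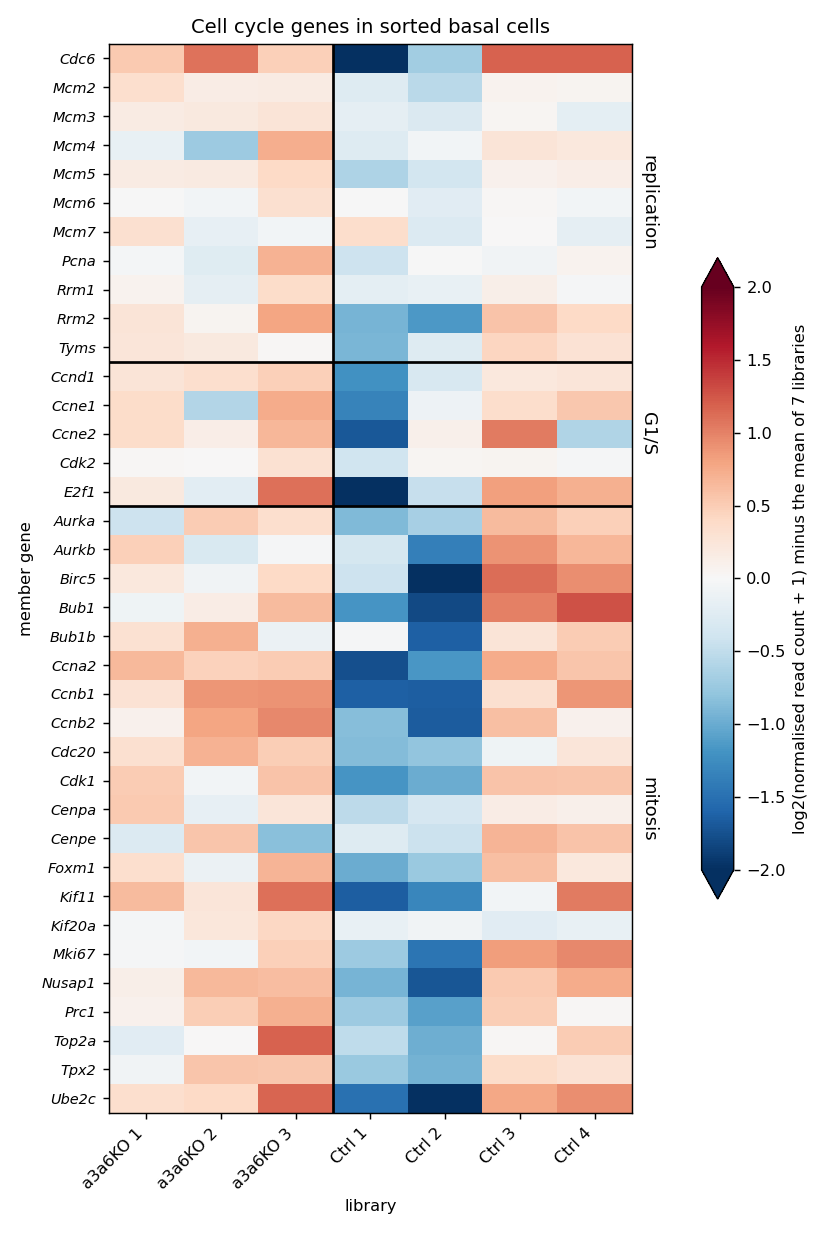
Each cell is a member's log2(normalised read count + 1) in 1 library minus its mean over the 7 libraries, red above and blue below, with the 3 a3a6KO libraries left of the 4 Ctrl libraries and the colour scale limited to ±2. Ctrl replicates 1 and 2 are blue for most members, and for 34 of 37 members the lowest value is in one of these libraries.

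The spread among controls was wider for the mitosis and G1/S members than for the replication members at the median. The median SD among the 4 Ctrl libraries on the log2 scale was 0.97 for the 21 mitosis members, 0.85 for the 5 G1/S members and 0.27 for the 11 replication members, against 0.30 over all genes tested. The spread that counting reads alone would give in Ctrl had a median of 0.24, 0.20 and 0.081 for these lists in turn. In a3a6KO the median SD was 0.35, 0.27 and 0.25, against 0.32 over all genes. The Ctrl SD was the larger for 29 of 37 members, where it was the larger for 48.6% of all genes. These are descriptions of 3 and 4 libraries, and no test of the spread was made.

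Replication genes, which act early in the cycle, had the narrower range. Their list mean was 8.13, 8.01 and 8.34 in a3a6KO replicates 1 to 3 and 7.31, 7.598, 8.21 and 8.13 in Ctrl replicates 1 to 4 on the log2 scale. The 7.31 of Ctrl replicate 1 was lowered by Cdc6, at 0 there. By the median deviation of members from their own mean over 7 libraries, Ctrl replicates 1 and 2 were alike, at −0.262 and −0.269. The median log2 fold change of the 11 members, a3a6KO minus Ctrl, was 0.27, against −0.0040 over all genes, and 10 of the 11 were above 0. Leaving out Ctrl replicate 1 gave 0.17 and leaving out Ctrl replicate 3 gave 0.42, and 0.41 came from a fit that held the milk genes' mean constant. The milk genes' mean itself differed between the groups, as given with the mitosis genes below.

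The helicase subunits Mcm2 to Mcm7 form the ring that unwinds DNA at the fork. Mcm3 (GSMG0001370, chromosome 1, 20802968 to 20820312, mm10) was at 380.3, 386 and 402 normalised read counts in a3a6KO and 299, 276, 349 and 295 in Ctrl, in the order of the replicates. Every a3a6KO library lay above every control. The log2 fold change was 0.36 (SE 0.14, 95% interval 0.045 to 0.67), with an unadjusted p of 0.029 and a limma adjusted p = 0.738.

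Mcm2 had 290.0, 254 and 256 in a3a6KO and 192, 158, 239.6 and 237 in Ctrl (log2 fold change 0.39, SE 0.19). Mcm5 had 222, 224 and 262 in a3a6KO and 129, 153, 210.2 and 216 in Ctrl (0.44, SE 0.22). For both the groups did not overlap either, by a small margin over Ctrl replicates 3 and 4. In all, 6 of the 37 members had no overlap with every a3a6KO library higher, 16.2% of them, where 4.00% of all genes tested did, and 0 had no overlap in the lower direction, where 3.51% did. The 6 were Mcm2, Mcm3, Mcm5, Ccnd1, Cdc20 and Kif20a, each described here.

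Mcm6 had 292, 281 and 367 in a3a6KO and 290.2, 250.5, 297 and 279.9 in Ctrl (0.16, SE 0.15). Mcm7 had 853, 613 and 657 in a3a6KO and 871, 568, 685 and 607 in Ctrl (0.06, SE 0.19), and its sign turned without a3a6KO replicate 1 (−0.09). Mcm4 had 466, 313 and 850.5 in a3a6KO and 429.8, 497, 614 and 595 in Ctrl (−0.08, SE 0.30). For these subunits the groups overlapped, and Mcm4 held both the lowest and the highest library in a3a6KO. Per kilobase of the principal transcript (GENCODE M21), the mean levels ran in the same order in both groups, Mcm7 at 239 in a3a6KO and 230.4 in Ctrl, Mcm4 at 151 and 149, Mcm3 at 129 and 100.6, Mcm6 at 108 and 96.0, Mcm2 at 79.2 and 61.2, and Mcm5 at 69.8 and 52.3. No test was made of differences between subunits.

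Cdc6, which loads the helicase at origins, was among the rarest members, with 22, 21 and 10 reads in a3a6KO and 0, 9, 32 and 39 reads in Ctrl. Its normalised read counts were 18.2, 27.7 and 17.8 in a3a6KO and 0, 7.27, 29.4 and 29.5 in Ctrl, so the a3a6KO libraries lay between the low and the high controls. The 0 in Ctrl replicate 1 allows up to 3 reads, counting error only. The log2 fold change of 1.22 had an SE of 1.10 and rested on that library. It was 0.15 without Ctrl replicate 1, 0.34 in edgeR and in DESeq2, and 0.66 with a pseudocount of 5.

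Pcna, the clamp that holds polymerases on DNA, had 650.4, 563 and 1084 in a3a6KO and 502, 667, 633 and 703 in Ctrl (0.24, SE 0.23). Without a3a6KO replicate 3, which stood well above the other mutants, it was −0.04. The ribonucleotide reductase subunits differed in their range. Rrm1, the large subunit, had 1181, 999 and 1455 in a3a6KO and 984, 1022, 1232 and 1109 in Ctrl (0.15, SE 0.16). Rrm2, the small subunit that limits the enzyme to S phase, had 155, 134 and 222 in a3a6KO and 67.3, 57.4, 193 and 171 in Ctrl (0.64, SE 0.44; 0.43 without Ctrl replicate 1 and 0.35 without Ctrl replicate 2). Rrm2 in Ctrl thus followed the pattern of the mitosis genes, with 3.36 times between its highest and lowest control, against 1.25 times for Rrm1.

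Tyms, thymidylate synthase, had 127, 123 and 109 in a3a6KO and 56.2, 89.7, 144 and 131 in Ctrl. The mutants lay within the controls. Its log2 fold change of 0.27 (SE 0.32) was −0.0015 without Ctrl replicate 1.

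The 5 G1/S members had their lowest value in Ctrl replicate 1 without exception. Ccnd1, cyclin D1, which links growth signals to the cycle, had 163, 173 and 190.4 in a3a6KO and 58.2, 108, 158 and 160.4 in Ctrl. The groups did not overlap, though a3a6KO replicate 1 was 1.78% above Ctrl replicate 4. The log2 fold change was 0.63 (SE 0.34, 95% interval −0.13 to 1.40, limma adjusted p = 0.792), and it was 0.32 without Ctrl replicate 1. Ccnd1 shares part of its locus with Oraov1 on the other strand, and the sources used here do not say whether counting used strand. Oraov1 had a log2 fold change of −0.25 (SE 0.23).

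The cyclin E genes, which drive entry into S phase, overlapped between the groups. Ccne1 had 77.9, 39.6 and 101.4 in a3a6KO and 23.1, 55.7, 77.1 and 87.8 in Ctrl (0.31, SE 0.49; −0.09 without Ctrl replicate 1). Ccne2 had 15.7, 13.2 and 19.6 in a3a6KO and 3.01, 12.9, 25.7 and 7.56 in Ctrl (0.67, SE 0.64; 0.21 without Ctrl replicate 1, 0.37 in edgeR). Their partner Cdk2 was steadier, with 281, 279.5 and 343 in a3a6KO and 209, 284, 288 and 272 in Ctrl (0.20, SE 0.17). E2f1, the activator of replication genes, had 29.8, 22.4 and 56.9 in a3a6KO and 5.02, 18.6, 46.8 and 43.1 in Ctrl (0.64, SE 0.71), and 5 reads lay behind its value in Ctrl replicate 1. Without that library its log2 fold change was 0.0058, and in edgeR it was 0.32. The median of the 5 log2 fold changes was 0.63, and it was 0.09 without Ctrl replicate 1, 0.27 without a3a6KO replicate 3, 0.32 in edgeR and 0.33 in DESeq2. A filter at 50 left 3 of the 5 genes, and their median was 0.31.

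**Figure D2:**
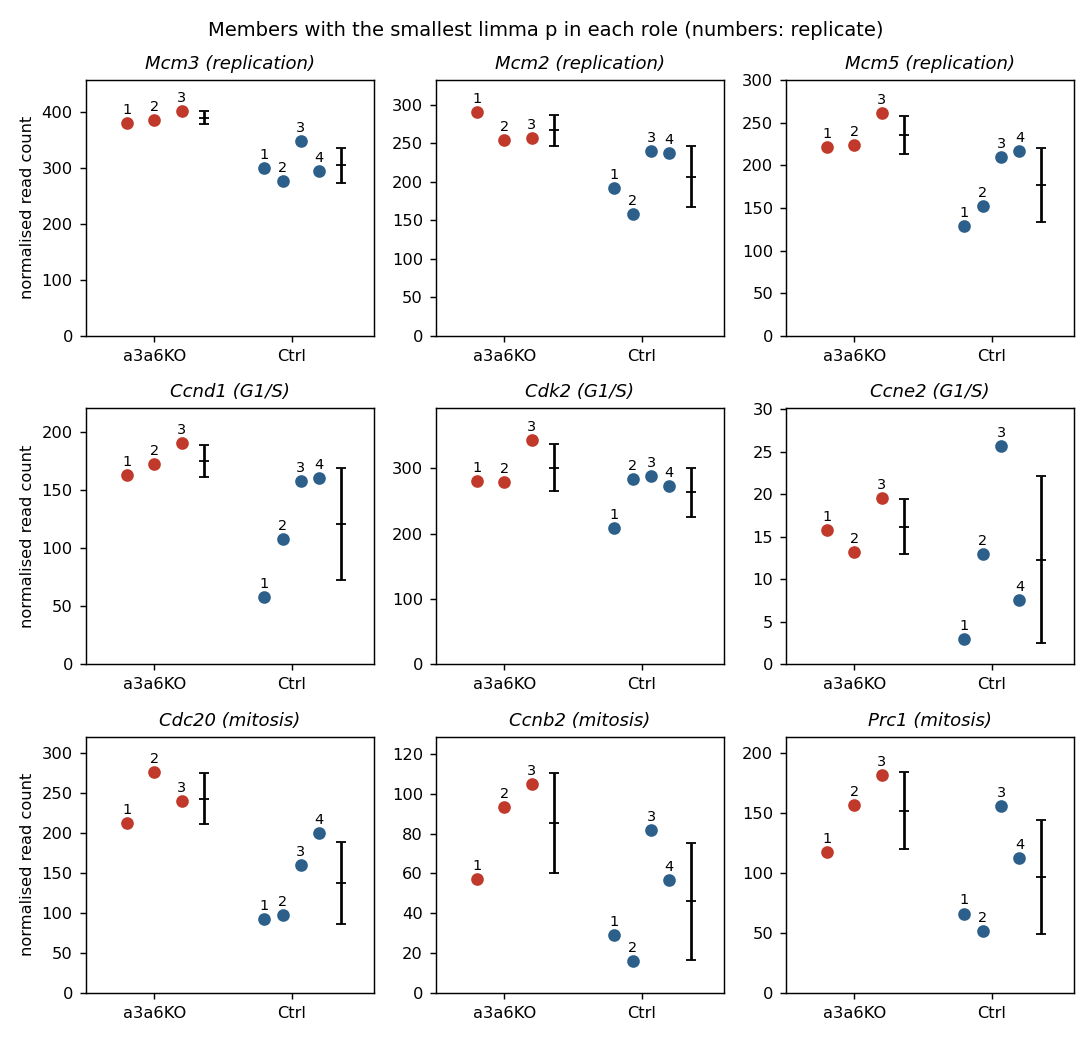
Normalised read counts in each library, with the replicate number beside each point and the mean ± SD of each group as a bar, for the 3 members of each role with the smallest limma p; axes start at 0. For Mcm3, Mcm2, Mcm5, Ccnd1 and Cdc20 the a3a6KO points lie above all Ctrl points, and for Ccnb2 and Prc1 they lie above Ctrl replicates 1 and 2 and overlap Ctrl replicate 3.

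Mitosis genes differed widely between the control libraries. Their list mean was 5.82, 5.95 and 6.16 in a3a6KO replicates 1 to 3 and 4.79, 4.45, 6.12 and 6.18 in Ctrl replicates 1 to 4 on the log2 scale. The controls thus spanned 1.74 log2 units and the mutants 0.34. Of the 21 members 20 had a log2 fold change above 0, with a median of 0.56. Leaving out Ctrl replicate 2 gave 0.36, edgeR gave 0.42 and DESeq2 gave 0.42. A fit that held the milk genes' mean constant gave 1.09. That mean itself differed between the groups, at 13.57 in a3a6KO and 14.57 in Ctrl on the log2 scale. Milk level and genotype were thus not separated in this fit.

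Cdc20 (GSMG0028269, chromosome 4, 118432901 to 118437350, mm10), the activator of the anaphase-promoting complex, had the smallest p of the members. Its normalised read counts were 213, 277 and 240.2 in a3a6KO and 92.4, 97.8, 159.7 and 200.5 in Ctrl. Each mutant library lay above each control, and Ctrl replicate 4 came closest. The means were 243 ± 32.1 (SD, n = 3) in a3a6KO and 138 ± 51.9 (SD, n = 4) in Ctrl, and the log2 fold change was 0.89 (SE 0.29, 95% interval 0.24 to 1.54), with an unadjusted p of 0.013 and a limma adjusted p = 0.666. Elovl1, which overlaps Cdc20 on the other strand, had means of 1089 in a3a6KO and 922 in Ctrl, a log2 fold change of 0.25 (SE 0.17). Elovl1 was thus the more abundant gene and also higher in a3a6KO. Its reads within the count of Cdc20 cannot be told apart without strand. Cdc20 and Mcm3 were the 2 members with an unadjusted p under 0.05, both higher in a3a6KO, 5.41% of the members where 3.55% of all genes tested were in that direction, and 0 members were lower at that p, where 2.78% of all genes were. In edgeR and in DESeq2 2 members (5.41%) had an unadjusted p under 0.05, where 5.98% of all genes in edgeR and 4.03% in DESeq2 did. These shares of the members are near those of all genes.

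The cyclins of G2 and mitosis were low in Ctrl replicates 1 and 2. Ccna2, cyclin A2, had 122, 107 and 110.3 in a3a6KO and 22.1, 33.9, 129 and 113 in Ctrl (0.95, SE 0.58). Ccnb1, cyclin B1, had 52.2, 79.1 and 80.1 in a3a6KO and 13.1, 12.9, 53.2 and 79.4 in Ctrl (1.21, SE 0.64). Ccnb2, cyclin B2, had 57.2, 93.6 and 105 in a3a6KO and 29.1, 16.2, 81.7 and 56.7 in Ctrl (1.08, SE 0.52, limma adjusted p = 0.789). In all 3 the mutants lay well above the low controls and overlapped the high ones. Leaving out 1 low control gave 0.50 for Ccna2 (Ctrl replicate 1) and 0.67 for Ccnb2 (Ctrl replicate 2).

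Ube2c, the ubiquitin-conjugating enzyme of the anaphase-promoting complex, showed the same split, with 109, 113 and 194 in a3a6KO and 30.1, 19.4, 148 and 164 in Ctrl (1.10, SE 0.72). Kif11, the motor that pushes spindle poles apart, had 52.2, 39.6 and 72.9 in a3a6KO and 10.04, 12.9, 32.1 and 69.6 in Ctrl (1.15, SE 0.62). The spindle assembly factor Tpx2 had 92.0, 141 and 141 in a3a6KO and 57.2, 49.3, 125 and 117 in Ctrl (0.60, SE 0.37). Prc1, which bundles the microtubules of the spindle midzone, had 118, 157 and 181 in a3a6KO and 66.3, 51.7, 156 and 113 in Ctrl (0.76, SE 0.37). Ctrl replicates 1 and 2 lay below every mutant library for all 4 genes, as did Ctrl replicate 3 for Kif11 and Ctrl replicate 4, by a small margin, for Prc1. Without Ctrl replicate 2 the log2 fold change was 0.56 for Ube2c, 0.37 for Tpx2 and 0.50 for Prc1, and without Ctrl replicate 1 it was 0.76 for Kif11.

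Kif20a, a motor of cytokinesis, did not share this split. It had 80.4, 96.3 and 110.3 in a3a6KO and 74.3, 78.4, 70.7 and 74.1 in Ctrl, with an SD of 0.060 among controls on the log2 scale. The groups did not overlap, and the log2 fold change was 0.35 (SE 0.20, limma adjusted p = 0.797). Kif20a overlaps Brd8 and Cdc23 on the other strand, which had log2 fold changes of −0.22 (SE 0.18) and −0.13 (SE 0.13). Both were more abundant than Kif20a, whose means were 95.6 in a3a6KO and 74.4 in Ctrl. Cdc23 had means of 1416 in a3a6KO and 1552 in Ctrl, and Brd8 240 and 279. Reads of these neighbours in its count cannot be told apart without strand. In all, 10 of the 37 members overlap another expressed gene model. Besides Ccnd1, Cdc20 and Kif20a these were Mcm7 (Ap4m1), Rrm1 (an unnamed model), Ccne2 (Ints8), Top2a (Rara), Ccna2 (Exosc9), Nusap1 (Spint1 and Oip5) and Prc1 (Rccd1). Ints8, at means of 973 in a3a6KO and 922 in Ctrl, was far above Ccne2. Their counts may also hold reads of these neighbours.

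The other 12 mitosis members were Mki67, Top2a, Cdk1, Aurka, Aurkb, Birc5, Bub1, Bub1b, Cenpa, Cenpe, Foxm1 and Nusap1. Their log2 fold changes ran from −0.33 (Cenpe) to 0.81 (Nusap1), and their limma adjusted p from 0.840 to 0.984. Mki67, the Ki-67 proliferation marker, was named after its values were seen, as were Birc5, Bub1 and Aurkb. Mki67 had 49.7, 48.8 and 71.2 in a3a6KO and 30.1, 17.8, 90.9 and 99.9 in Ctrl. The mutants lay between the low and the high controls, and the log2 fold change of 0.23 (SE 0.58) was −0.10 in edgeR and −0.22 without Ctrl replicate 2.

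Birc5, survivin, of the chromosomal passenger complex, had 54.7, 44.8 and 62.3 in a3a6KO and 35.1, 9.70, 103 and 90.8 in Ctrl (0.31, SE 0.71; −0.16 in edgeR). Bub1, a kinase of the spindle checkpoint, had 29.0, 34.3 and 48.0 in a3a6KO and 13.1, 8.08, 62.4 and 75.6 in Ctrl (0.41, SE 0.74; −0.13 in edgeR). For both genes the mean of the controls was the higher one, at 59.6 against 53.9 in a3a6KO for Birc5 and 39.8 against 37.1 in a3a6KO for Bub1, while the log scale, which weighs the low controls more, gave a value above 0. The same turn was seen for Mki67 and for Aurkb, the kinase of the passenger complex (0.08 in limma, −0.12 in edgeR).

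**Figure D3:**
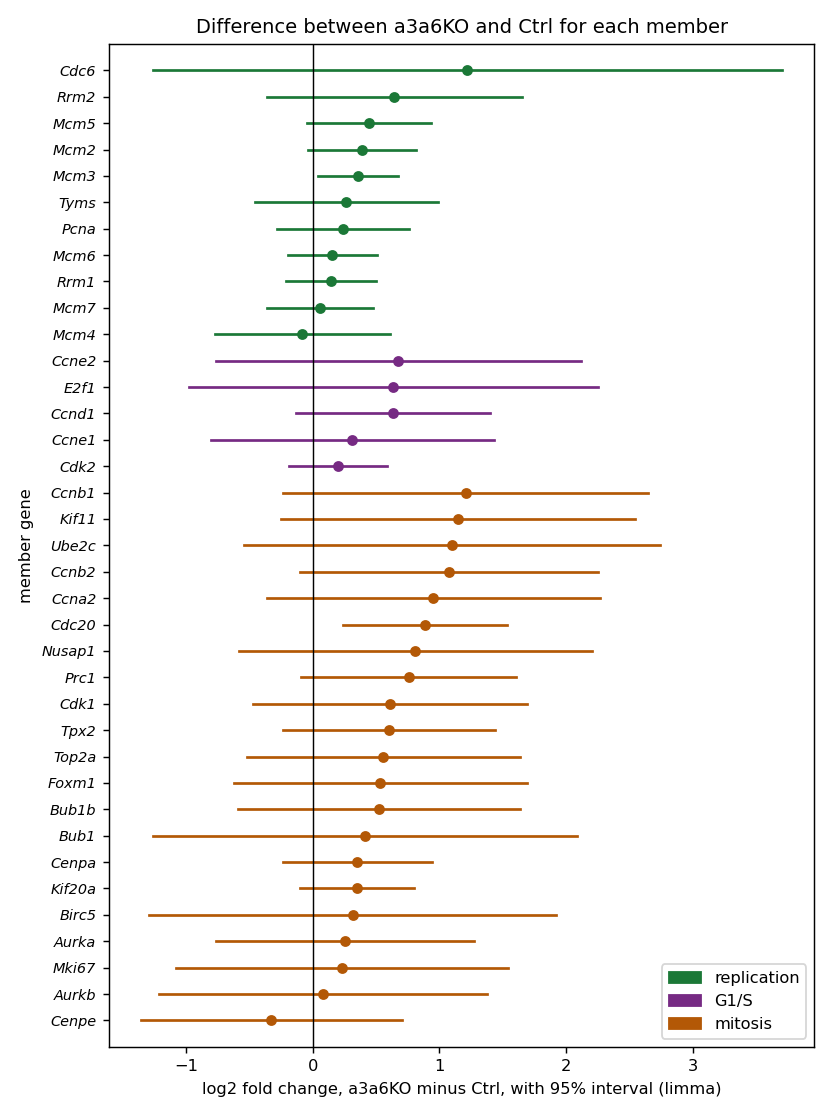
Points are the log2 fold changes of the 37 members, a3a6KO minus Ctrl, on the log2(normalised read count + 1) scale, and lines are their 95% intervals in limma, coloured by role. The intervals of Mcm3 and Cdc20 exclude 0 before adjustment, and 35 of 37 points lie above 0.

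Genes of the same processes outside the members were described from lists of 52 further replication genes, 58 further mitosis genes and 39 genes of cell cycle control (CDK inhibitors, D cyclins, retinoblastoma and E2F proteins, checkpoint kinases). Of these 49, 54 and 37 were tested. In limma 0 passed after adjustment in any of the lists, and edgeR and DESeq2 called 0. At an unadjusted p under 0.05, 1 replication gene was higher and 1 lower, 4 mitosis genes were higher and 1 lower, and 1 gene of cell cycle control was higher, where 3.55% of all genes tested were higher and 2.78% lower at that p. With no overlap of the groups, 1 replication gene was higher and 2 lower, and 2 mitosis genes were higher and 0 lower. Of the genes of cell cycle control 1 was higher and 1 lower. Over all genes tested the shares were 4.00% higher and 3.51% lower. Counts this small in lists of this size give no result about the lists. Most genes named below were picked by a small p, which favours groups without overlap.

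The median log2 fold change of the further replication genes was 0.07, with 29 of 49 above 0. Pola2, a subunit of the polymerase that starts each DNA strand, had 252, 247 and 209.9 in a3a6KO and 156, 162, 131 and 172 in Ctrl (0.61, SE 0.17, limma adjusted p = 0.551), with no overlap. Rpa1, which coats single-stranded DNA and had the highest mean value of its list, had 2436, 3122 and 2703 in a3a6KO and 5352, 4059, 3546 and 2803 in Ctrl (−0.48, SE 0.21). Orc5, of the origin recognition complex, had a log2 fold change of −0.32 (SE 0.14), with every mutant library below every control. Members of the replication machinery therefore had values in both directions.

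The further mitosis genes had a median of 0.34, with 42 of 54 above 0, where 49.5% of all genes tested were. They share the libraries of the members, so this count is not a separate observation. Of the 54, 24 were lowest in Ctrl replicate 1 and 15 in Ctrl replicate 2, where 18.4% and 10.7% of all genes were. Cks1b, a small partner of CDKs, had 799, 879 and 761 in a3a6KO and 484, 469, 602 and 672 in Ctrl (0.56, SE 0.16, limma adjusted p = 0.582), with no overlap. Aspm, a spindle pole protein, was rare, with 24.0, 17.1 and 8.90 in a3a6KO and 1.004, 3.23, 3.67 and 11.3 in Ctrl (1.81, SE 0.70). Gtse1, which is active in G2 and mitosis, stood on the other side, with 65.5, 121 and 74.7 in a3a6KO and 185, 112, 131 and 119.5 in Ctrl (−0.67, SE 0.27). Bub3, of the spindle checkpoint, had the highest mean value of the list and a log2 fold change of −0.02 (SE 0.15), which was 0.09 with library weights. The SD among controls had a median of 0.73 for the further mitosis genes and 0.23 for the further replication genes. Counting reads alone would give 0.27 and 0.11. The wider spread of mitosis genes was thus also present outside the members. The mitosis genes were also lower in level, with a median mean value of 41.8 against 185 in the further lists. Among the members it was 58.3 against 294. Role and level were not separated.

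Genes of cell cycle control had a median of 0.0089, with 19 of 37 above 0. Ccnd3, cyclin D3, had 1260.2, 1130.0 and 1052 in a3a6KO and 810.3, 876, 988 and 988 in Ctrl (0.33, SE 0.13, limma adjusted p = 0.741), with no overlap. Cdkn1b, the CDK inhibitor p27, had 355, 318 and 285 in a3a6KO and 434, 406, 375 and 362 in Ctrl (−0.31, SE 0.14), also with no overlap. Cdkn1c, the inhibitor p57, overlapped (−0.34, SE 0.19). Btg2, an antiproliferative gene, had the highest mean value of the list, at 33409 ± 15577 (SD, n = 3) in a3a6KO and 34413 ± 15963 (SD, n = 4) in Ctrl, a log2 fold change of −0.03 (SE 0.41), which was 0.12 with library weights.

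**Figure D4:**
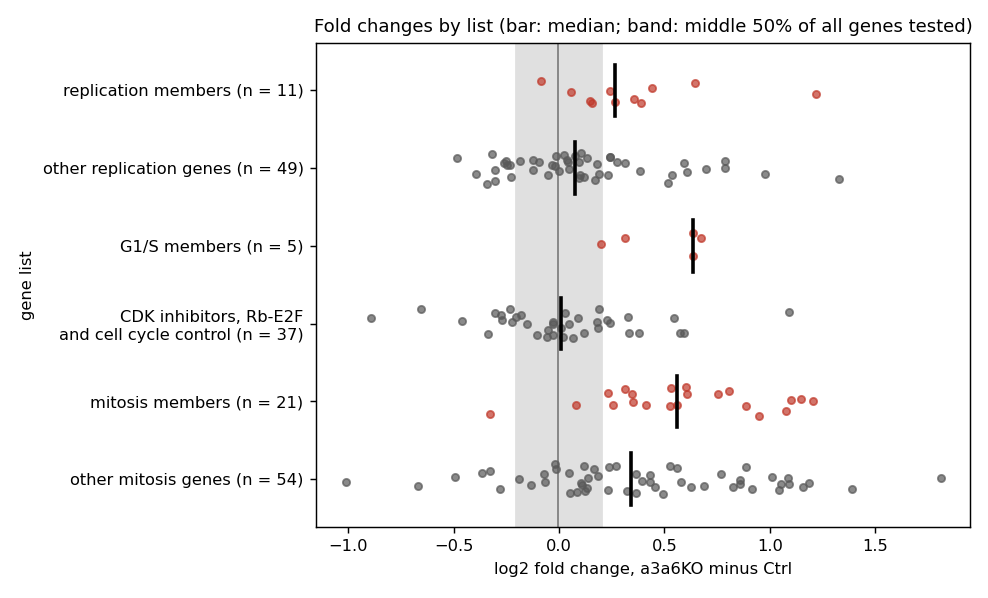
Each point is a gene's log2 fold change, a3a6KO minus Ctrl, with members in red and the other genes of the same processes in grey; black bars are list medians and the band holds the middle 50% of all genes tested. The median bars lie at 0.56 for mitosis members and 0.34 for other mitosis genes, and at 0.27 and 0.07 for the replication lists.

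Markers of other cell types moved with the members in some libraries and not in others. The 4 milk protein genes, made by luminal cells, had list means of 12.6, 13.4 and 14.7 in a3a6KO and 13.6, 13.2, 15.4 and 15.98 in Ctrl on the log2 scale, and summed to 71220 to 288551 in a3a6KO and 100881 to 699817 in Ctrl. The 9 luminal markers had list means of 8.76, 8.92 and 9.61 in a3a6KO and 8.47, 8.25, 9.51 and 10.04 in Ctrl, with sums of 18309 to 26030 and 18807 to 33432. The 9 immune markers tested of 13 listed had list means of 5.90, 5.75 and 6.99 in a3a6KO and 5.38, 5.73, 6.84 and 6.86 in Ctrl, with sums of 1271 to 3589 and 931 to 3247 over all 13. By list mean Ctrl replicates 3 and 4 were thus the higher controls for luminal, milk and immune markers, and a3a6KO replicate 3 the highest mutant. The same held for the replication, G1/S and mitosis members and for the fibroblast markers given below. By the sum of luminal markers the order differed, with 33432 in Ctrl replicate 1, 18807 in Ctrl replicate 2, 23219 in Ctrl replicate 3 and 28772 in Ctrl replicate 4. Between the groups the lists also parted. The milk mean of a3a6KO replicate 1, 12.6, was the lowest of all libraries. Its mitosis mean, 5.82, lay above the 4.79 and 4.45 of Ctrl replicates 1 and 2. Of the defining lymphocyte markers, Cd3e was at 0 in a3a6KO replicates 1 and 3 and in Ctrl replicates 1, 2 and 4.

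The 10 endothelial markers had list means of 9.60, 9.99 and 10.1 in a3a6KO and 8.55, 8.85, 8.68 and 9.29 in Ctrl, with sums of 9091 to 12584 in a3a6KO and 4103 to 7026 in Ctrl, so every mutant library lay above every control. All 10 were higher at an unadjusted p under 0.05 in limma, where 3.55% of all genes tested were. After adjustment DESeq2 called 7 of them, where it called 0.232% of all genes, and limma and edgeR called 0. The 7 fibroblast markers had list means of 9.68, 9.63 and 9.98 in a3a6KO and 8.92, 9.15, 10.4 and 9.49 in Ctrl, with sums of 20781 to 31271 and 16494 to 27329. The 6 pericyte markers had list means of 7.64, 8.47 and 8.07 in a3a6KO and 7.38, 7.50, 7.07 and 8.21 in Ctrl, with sums of 2666 to 3684 and 1697 to 3233. The part of these cells in the cell cycle values was not tested. With the luminal mean as a covariate the mitosis median was 0.53 and with the immune mean 0.54, and both means differed little between the groups (0.03 and 0.02 on the log2 scale). The endothelial mean, which differed by 1.06, was not used as a covariate. The milk mean, used as a covariate after seeing the data, was lower in a3a6KO, at 13.57 against 14.57 in Ctrl.

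**Figure D5:**
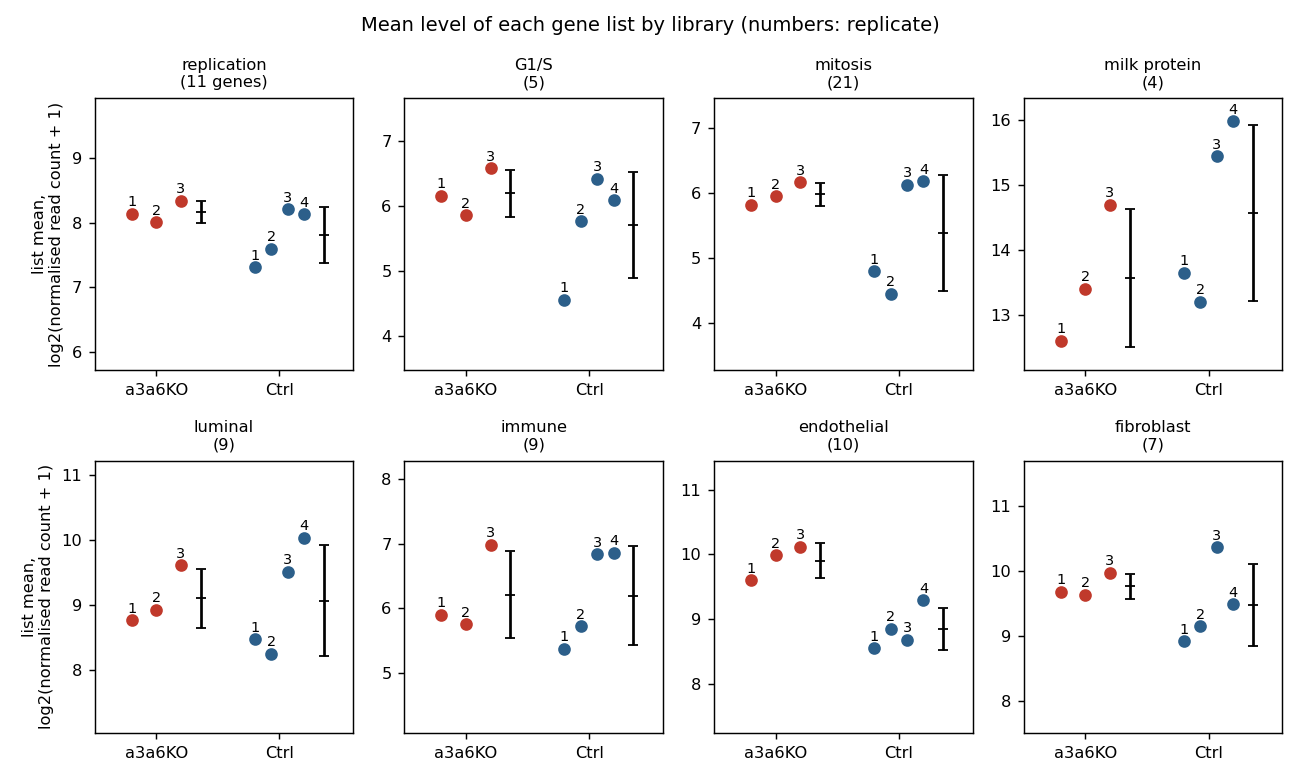
Points are the list means of each library on the log2(normalised read count + 1) scale, numbered by replicate, with the mean ± SD of the group beside them, for 8 gene lists; each panel spans the same number of log2 units. Ctrl replicates 1 and 2 lie below Ctrl replicates 3 and 4 in all panels but the endothelial one. In the endothelial panel the a3a6KO libraries lie above all controls.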

How the data were processed

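The 7 libraries were grouped by their genotype label into 3 a3a6KO and 4 Ctrl samples, and replicate numbers name them in the order of deposition. Per the labels' protocols, libraries for sequencing were SMARTer v4. The deposited table holds 1 signal value per gene model and library, made by the authors from read counts scaled with DESeq2 size factors, going by the title of the deposited file and by its values. The submitters' processing notes also list STAR 2.4.0, SAMtools, Picard and FastQC without their role, and build mm10. The sources used here do not name the read counter or say whether it used strand. Values are not corrected for length.

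Every value was a whole multiple of 1 step per library, within 0.05 of a read for 100% of values, so reads were recovered. Members were matched by symbol. The comparison used limma 3.58.1 (R 4.3.3; empirical Bayes, trended) on log2(value + 1) of genes that reached 10 in 3 or more libraries, two-sided, with Benjamini-Hochberg adjustment over all genes and a threshold of 0.05. Fold changes are on this scale, where those of low genes depend on the pseudocount and on the lowest libraries. Among the alternatives were count tests on those reads by edgeR 4.0.16 and by DESeq2 1.42.0. The scripts were tested on simulated counts with 200 changed genes. Lengths came from GENCODE M21 and promoters from RefSeq.

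Values in every library are given for all replication and G1/S members and, of the mitosis members, for the 8 with the smallest p and the 3 with the highest mean. Of the further lists the 3 genes with the smallest p and the 1 with the highest mean are named, and promoters are those of the 2 replication and 2 mitosis members with the smallest p. The members and lists were chosen with earlier results of these data known. The covariates, filters, scalings, weights and each left-out library were alternatives, and the milk protein covariate was added after seeing the data. The series' text calls the replicates biological and says nothing of litters or days. The p-values set the difference between the groups against the spread between these samples.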

Additional observations from a re-analysis of the deposited data

How the results depend on the processing

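With 21 alternatives, 0 members passed the threshold, and 0 genes of the table did except in DESeq2, which called 73. Without 1 library at a time the count of genes was 0 to 0, that of members 0 to 0, and that of members above 0 was 30 to 36. The replication median was 0.17 to 0.42, the G1/S median 0.09 to 0.80 and the mitosis median 0.36 to 0.81. Of 768 member values under alternatives, 26 in 11 members turned their sign, and 0 passed the threshold. With the milk genes' mean held constant Mcm4 was 0.16, Mcm7 −0.014 and Btg2 0.017. In edgeR and DESeq2, in this order, Mcm4 was 0.011 and 0.010, Mki67 −0.10 and −0.10, Aurkb −0.12 and −0.13, Birc5 −0.16 and −0.16, and Bub1 −0.13 and −0.12. With library weights Bub3 was 0.087 and Btg2 0.12. Leaving out 1 library gave log2 fold changes of Mcm4 −0.47 to 0.25, Mcm7 −0.086 to 0.18, Pcna −0.038 to 0.43, Tyms −0.0015 to 0.45, Ccne1 −0.088 to 0.70, Mki67 −0.22 to 0.59, Aurka −1.8e-05 to 0.53, Aurkb −0.36 to 0.39, Birc5 −0.36 to 0.73, Bub1 −0.13 to 0.89, Cenpe −0.69 to 0.0013, Bub3 −0.084 to 0.12 and Btg2 −0.38 to 0.29. The cause was not tested. No paired analysis was possible because the labels give no replicate numbers or pairs. Leaving out 1 library moved the log2 fold change of 31 members by over 1.5 times, and of the other 6 (Mcm2, Mcm3, Mcm5, Ccnb1, Cdc20 and Kif20a) by less. Members with under 20 reads numbered 1, 4 and 6 in a3a6KO replicates 1 to 3 and 11, 10, 0 and 1 in Ctrl replicates 1 to 4, an order that did not follow the total reads of the libraries.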
